A study of Homo sapiens with 6 samples.

Results

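NEK7 knockdown was set against NEK6 knockdown in 2 pancreatic cancer cell lines, CFPAC and KP3, by RNA sequencing. Gene records entered the contrast when their FPKM (fragments scaled to transcript length and to the mapped fragments of the library) was at least 1 in any of the 4 NEK7 and NEK6 siRNA libraries, which kept 14262 of 33097 records, 11498 of them protein-coding. At the limit, 374 records kept had a highest FPKM of 1 to 1.1, and 396 left out had one of 0.9 to 1. These 4 libraries came from a study of 6. The groups were CFPAC cells with NEK7 siRNA, KP3 cells with NEK7 siRNA, CFPAC cells with NEK6 siRNA and KP3 cells with NEK6 siRNA. CFPAC and KP3 cells with control siRNA stand beside the values as a level to read them by and are neither side of the contrast. Each line and siRNA had 1 library, so no line has an error of its own. What is tested is the difference over both lines, set against how far the lines disagreed, control libraries included. The control libraries carry a control siRNA in their titles and wild type in their treatment tag. The siRNA sequences, their number, dose and time are not given in the sources used, and with 1 siRNA label per kinase an effect of the siRNA itself and of the lost kinase cannot be told apart.

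NEK6 and NEK7 are close paralogs of the NIMA-related kinase family, little more than a catalytic domain with a short N-terminal extension. In mitosis both act below NEK9, which binds and activates them, and they help to separate centrosomes and build the spindle through substrates such as the kinesin KIF11. NEK7 has a further role, best known in macrophages, as a partner that NLRP3 needs to assemble the inflammasome, which activates caspase-1 and releases interleukin-1 beta.

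The coding sequences of the 2 kinases show how near they are to each other. In GENCODE v29 (GRCh38), 629 of 905 aligned coding bases (69.5%) were identical, and the longest identical run was 14 bases. That run is in capitals in the stretches of 30 coding bases below, which lie in an exon at chr1:198297188-198297217 (plus strand, coding bases 746 to 775 of 906) for NEK7 and at chr9:124347770-124347799 (plus strand, coding bases 779 to 808 of 939) for NEK6.
NEK7: agatagaaCAGTGTGACTACCCacctcttc
NEK6: agatcgagCAGTGTGACTACCCcccactcc

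The libraries held 59478910 to 66067379 counts. Over the genes tested, log2(FPKM + 1) correlated between the NEK7 and NEK6 siRNA libraries of 1 line at a Pearson r of 0.972 in CFPAC and 0.967 in KP3, and between libraries of different lines at 0.770 to 0.789. Of 6 markers of duct epithelium, 5 were at 1 FPKM or more in all 4 libraries, and the exception, KRT7, lay between 0.817 and 1.67 FPKM. In CFPAC leukocyte markers summed to 6.28 FPKM with NEK7 and 6.47 FPKM with NEK6 siRNA, nearly all of it CD14, and in KP3 to 0.396 FPKM with NEK7 and 0.234 FPKM with NEK6 siRNA. Endothelial markers in CFPAC summed to 0.0918 FPKM with NEK7 and 0.221 FPKM with NEK6 siRNA, and in KP3 to 0.00464 FPKM with NEK7 and 0 FPKM with NEK6 siRNA. Of 6 fibroblast markers, 4 were at 1 FPKM or more in any of the 4 libraries. COL3A1 was so in all 4 libraries, and LUM reached 143 FPKM with NEK7 and 137 FPKM with NEK6 siRNA in CFPAC cells alone. DCN had 9.56 FPKM with NEK7 and 7.07 FPKM with NEK6 siRNA in CFPAC, and COL1A2 lay between 0.895 and 1.4 FPKM.

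In each line the library with the lowest level of either kinase was that of its own siRNA. NEK7 had 2.4 FPKM with NEK7 siRNA, 18.0 FPKM with NEK6 siRNA and 14.8 FPKM with control siRNA in CFPAC cells. KP3 cells gave NEK7 5.79 FPKM with NEK7 siRNA, 12.4 FPKM with NEK6 siRNA and 14.7 FPKM with control siRNA. Against the NEK6 siRNA library of the same line, the NEK7 siRNA library kept 13.3% of the NEK7 FPKM in CFPAC (95% exact binomial interval of the counts, 12.5 to 14.3%) and 46.8% in KP3 (44.6 to 49.2%), so the KP3 library retained the larger part. NEK6 had 14.2 FPKM with NEK7 siRNA, 4.09 FPKM with NEK6 siRNA and 15.2 FPKM with control siRNA in CFPAC cells. KP3 cells gave NEK6 22.4 FPKM with NEK7 siRNA, 6.98 FPKM with NEK6 siRNA and 21.3 FPKM with control siRNA. The NEK6 siRNA library kept 28.8% of the NEK6 FPKM in CFPAC (27.1 to 30.5%) and 31.2% in KP3 (29.8 to 32.7%). These intervals cover counting error only. In each line the control level of both kinases lay nearer to that of the library with the other siRNA. NEK9, their upstream kinase, differed by -0.07 in CFPAC and 0.13 in KP3 on the log2(FPKM + 1) scale.

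Between NEK7 and NEK6 siRNA, 143 genes (1.0% of those tested) were at least 1.5-fold higher and 131 (0.919%) at least 1.5-fold lower in both lines, taken as differences of log2(FPKM + 1). Another 71 genes (0.498%) were at least 1.5-fold higher in CFPAC and lower in KP3, and 53 (0.372%) were lower in CFPAC and higher in KP3. Within CFPAC alone 700 genes (4.91%) were that much higher and 638 (4.47%) lower, and within KP3 804 (5.64%) were higher and 848 (5.95%) lower. Most genes past 1.5-fold in 1 line were therefore not so in the other. By any amount, 4706 genes (33.0%) were higher and 3493 (24.5%) lower in both lines. The median difference was 0.03 in CFPAC (quartiles -0.14 and 0.20) and 0.01 in KP3 (quartiles -0.18 and 0.21). Over genes, which are not independent replicates, the CFPAC and KP3 differences, which share no library, had a Pearson r of 0.195 and a Spearman coefficient of 0.245.

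**Figure D1:**
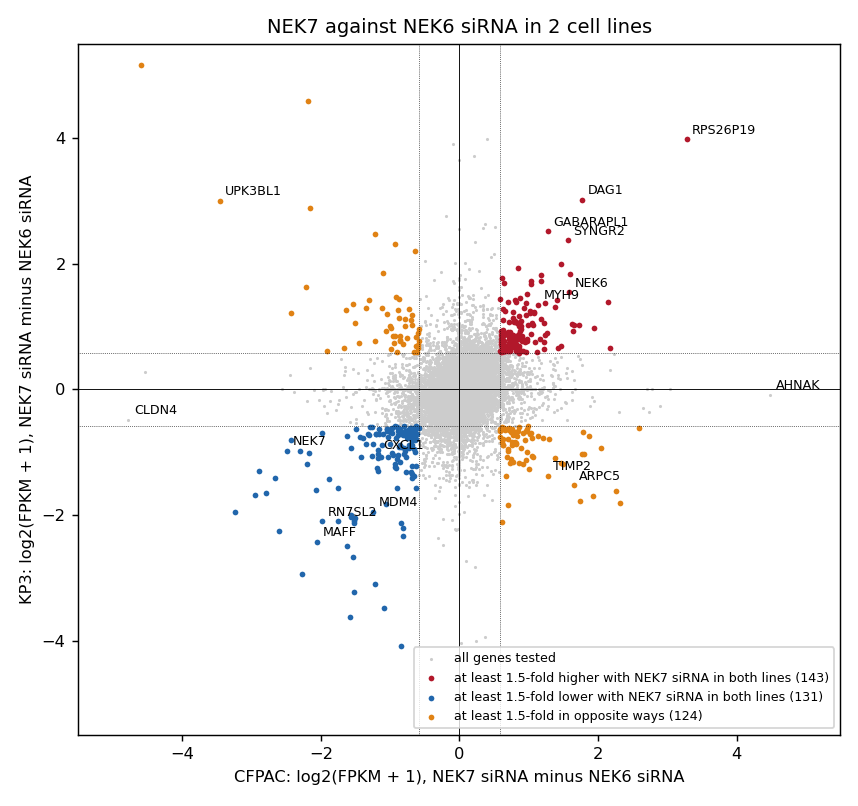
Difference of log2(FPKM + 1) between NEK7 and NEK6 siRNA in CFPAC cells (horizontal) and KP3 cells (vertical), 1 point per gene tested. The genes at least 1.5-fold higher (143) or lower (131) in both lines and those past 1.5-fold in opposite ways (71 and 53) are coloured as in the legend, and most genes lie near 0 on both axes.

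No gene passed an adjusted p of 0.05 in edgeR's quasi-likelihood test with cell line as a block (0.0% of genes), where 2 residual degrees of freedom were left and the biological coefficient of variation was 25.5%. The lowest adjusted p was 0.178. At an unadjusted p under 0.05 there were 1434 genes (10.1%), 731 higher and 703 lower. DESeq2, run as an alternative on the same counts and factors, called 485 genes (3.40%), 256 higher (1.79%) and 229 lower (1.61%). Of the genes past 1.5-fold in both lines, 100 of the 143 higher and 74 of the 131 lower were among DESeq2's calls, and 0 of the 124 opposite ones. DESeq2 fitted a single ratio for both lines on the same libraries. Genes picked as alike in both lines were thus favoured and opposite ones could hardly be called, so these counts back neither group. The genes described next are therefore given by their levels, and the adjusted p beside each misses the threshold.

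Read-through records aside, the protein-coding genes higher with NEK7 than with NEK6 siRNA in both lines were led by DAG1 (chr3:49468703-49535618, plus strand), SYNGR2 (chr17:78168558-78173527, plus strand), NEK6 itself and LRP11 (chr6:149818757-149864359, minus strand), with coordinates as the deposited table gives them, GRCh38 by overlap with GENCODE v29. In bulk libraries such as these, fewer cells of a type and less RNA per cell cannot be told apart. DAG1, dystroglycan, the receptor that ties laminin outside the cell to the cytoskeleton, had 14.9 FPKM with NEK7 siRNA, 3.66 FPKM with NEK6 siRNA and 11.7 FPKM with control siRNA in CFPAC cells. KP3 cells gave DAG1 41.2 FPKM with NEK7 siRNA, 4.21 FPKM with NEK6 siRNA and 8.09 FPKM with control siRNA. The NEK6 siRNA library was the lowest in both lines, and the NEK7 siRNA library stood above the control, far more so in KP3 (edgeR log2 ratio 2.72 with SE 0.50, adjusted p = 0.297, the ratio being NEK7 over NEK6 siRNA). SYNGR2, a membrane protein of transport vesicles, had 12.3 FPKM with NEK7 siRNA, 3.49 FPKM with NEK6 siRNA and 9.33 FPKM with control siRNA in CFPAC cells. KP3 cells gave SYNGR2 70.8 FPKM with NEK7 siRNA, 12.9 FPKM with NEK6 siRNA and 30.3 FPKM with control siRNA. SYNGR2 showed that order too, lowest with NEK6 and highest with NEK7 siRNA in both lines (edgeR log2 ratio 2.12 with SE 0.24, adjusted p = 0.242). LRP11, of the LDL receptor-related family, had 11.8 FPKM with NEK7 siRNA, 3.64 FPKM with NEK6 siRNA and 11.7 FPKM with control siRNA in CFPAC cells. KP3 cells gave LRP11 20.9 FPKM with NEK7 siRNA, 4.5 FPKM with NEK6 siRNA and 18.0 FPKM with control siRNA. For LRP11 the NEK7 siRNA and control libraries were close and the NEK6 siRNA library was low in both lines (edgeR log2 ratio 1.92 with SE 0.17, adjusted p = 0.178).

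GABARAPL1, of the ATG8 proteins that coat the autophagosome, had 11.4 FPKM with NEK7 siRNA, 4.11 FPKM with NEK6 siRNA and 9.13 FPKM with control siRNA in CFPAC cells. KP3 cells gave GABARAPL1 50.3 FPKM with NEK7 siRNA, 7.96 FPKM with NEK6 siRNA and 9.45 FPKM with control siRNA. Levels of GABARAPL1 with NEK7 siRNA stood above those of the control in both lines, far more so in KP3 (edgeR log2 ratio 2.13 with SE 0.51, adjusted p = 0.371). MYH9, the heavy chain of non-muscle myosin IIA, had 57.3 FPKM with NEK7 siRNA, 25.5 FPKM with NEK6 siRNA and 51.8 FPKM with control siRNA in CFPAC cells. KP3 cells gave MYH9 39.5 FPKM with NEK7 siRNA, 14.9 FPKM with NEK6 siRNA and 35.4 FPKM with control siRNA. The NEK6 siRNA library held less than either of the others in both lines (edgeR log2 ratio 1.25 with SE 0.12, adjusted p = 0.215). ARHGDIA, which keeps small GTPases inactive in the cytosol, had 30.9 FPKM with NEK7 siRNA, 14.2 FPKM with NEK6 siRNA and 31.8 FPKM with control siRNA in CFPAC cells. KP3 cells gave ARHGDIA 36.7 FPKM with NEK7 siRNA, 15.0 FPKM with NEK6 siRNA and 36.7 FPKM with control siRNA. ARHGDIA, too, was close to control with NEK7 siRNA and low with NEK6 siRNA (edgeR log2 ratio 1.17 with SE 0.12, adjusted p = 0.215). In brackets from here on stand differences of log2(FPKM + 1), NEK7 minus NEK6 siRNA. The others of the 14 named were MRPL49 (2.15 in CFPAC, 1.39 in KP3), a mitochondrial ribosomal protein, ASB1 (1.18 in CFPAC, 1.73 in KP3), a SOCS-box protein, and MANSC1 (1.17 in CFPAC, 1.83 in KP3), a membrane protein. They were joined by NUTF2 (1.18 in CFPAC, 1.13 in KP3), which carries Ran into the nucleus, SLC25A24 (1.07 in CFPAC, 1.21 in KP3), a mitochondrial ATP-magnesium carrier, PEX5 (1.05 in CFPAC, 1.05 in KP3), the peroxisomal import receptor, and KLRC3 (1.23 in CFPAC, 1.06 in KP3). KLRC3 has near-identical neighbours in its receptor family, so its counts are uncertain. MANSC1, LRP11 and NEK6 were among the genes at the lowest adjusted p, 0.178 in edgeR.

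**Figure D2:**
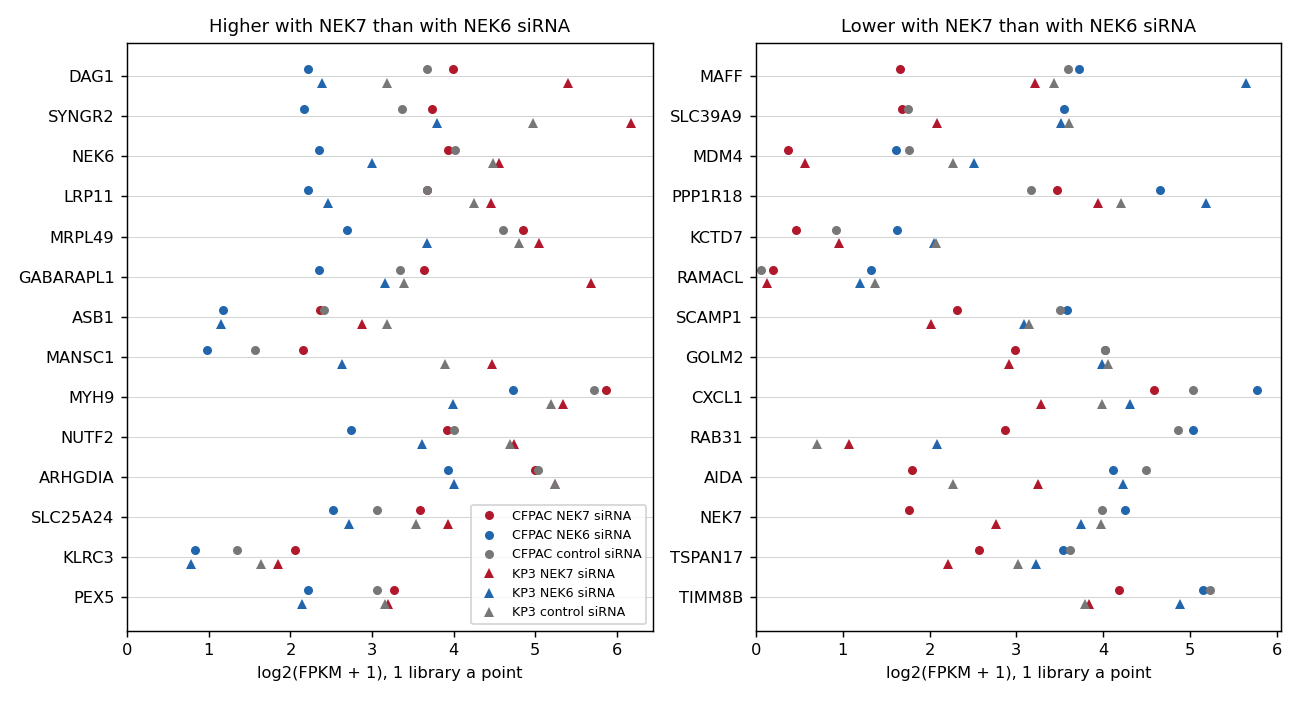
Levels as log2(FPKM + 1) of the 14 protein-coding genes, read-through records left out, most higher (left) and most lower (right) with NEK7 than with NEK6 siRNA in both lines, with 1 point per library (circles CFPAC, triangles KP3). On the left the NEK6 siRNA library is the lowest in each line, and on the right the NEK7 siRNA library is below the NEK6 siRNA library in each line while the control varies.

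Lower with NEK7 than with NEK6 siRNA in both lines were, among others, MDM4 (chr1:204516379-204558120, plus strand), GOLM2 (chr15:44288719-44415758, plus strand), SCAMP1 (chr5:78360611-78478815, plus strand), MAFF, CXCL1 and NEK7 itself. MDM4, an inhibitor of p53, had 0.29 FPKM with NEK7 siRNA, 2.06 FPKM with NEK6 siRNA and 2.39 FPKM with control siRNA in CFPAC cells. KP3 cells gave MDM4 0.482 FPKM with NEK7 siRNA, 4.72 FPKM with NEK6 siRNA and 3.82 FPKM with control siRNA. The NEK7 siRNA libraries held the least and the NEK6 siRNA libraries lay near control (edgeR log2 ratio -3.08 with SE 0.20, adjusted p = 0.178), with 245 counts for NEK7 siRNA and 1717 counts for NEK6 siRNA in CFPAC, and 423 counts for NEK7 siRNA and 3736 counts for NEK6 siRNA in KP3. GOLM2, a Golgi membrane protein, had 6.9 FPKM with NEK7 siRNA, 15.2 FPKM with NEK6 siRNA and 15.2 FPKM with control siRNA in CFPAC cells. KP3 cells gave GOLM2 6.56 FPKM with NEK7 siRNA, 14.9 FPKM with NEK6 siRNA and 15.7 FPKM with control siRNA. The pattern of GOLM2 was the same in both lines, NEK7 siRNA low and the other libraries alike (edgeR log2 ratio -1.20 with SE 0.11, adjusted p = 0.19). SCAMP1, a carrier membrane protein of post-Golgi recycling, had 3.99 FPKM with NEK7 siRNA, 11.0 FPKM with NEK6 siRNA and 10.3 FPKM with control siRNA in CFPAC cells. KP3 cells gave SCAMP1 3.06 FPKM with NEK7 siRNA, 7.5 FPKM with NEK6 siRNA and 7.85 FPKM with control siRNA. SCAMP1 followed it (edgeR log2 ratio -1.41 with SE 0.12, adjusted p = 0.178).

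MAFF, a small Maf transcription factor induced by stress, had 2.17 FPKM with NEK7 siRNA, 12.2 FPKM with NEK6 siRNA and 11.1 FPKM with control siRNA in CFPAC cells. KP3 cells gave MAFF 8.31 FPKM with NEK7 siRNA, 49.1 FPKM with NEK6 siRNA and 9.77 FPKM with control siRNA. The difference between the knockdowns was alike in both lines, but in CFPAC it was the NEK7 siRNA library that stood below the control and in KP3 the NEK6 siRNA library that stood above it (edgeR log2 ratio -2.56 with SE 0.60, adjusted p = 0.368). CXCL1, a chemokine that draws neutrophils, had 23.1 FPKM with NEK7 siRNA, 53.5 FPKM with NEK6 siRNA and 31.8 FPKM with control siRNA in CFPAC cells. KP3 cells gave CXCL1 8.71 FPKM with NEK7 siRNA, 18.8 FPKM with NEK6 siRNA and 14.9 FPKM with control siRNA. Here the control lay between the 2 knockdowns in both lines (edgeR log2 ratio -1.20 with SE 0.15, adjusted p = 0.255). PPP1R18, which targets protein phosphatase to actin, had 10.1 FPKM with NEK7 siRNA, 24.3 FPKM with NEK6 siRNA and 7.97 FPKM with control siRNA in CFPAC cells. KP3 cells gave PPP1R18 14.3 FPKM with NEK7 siRNA, 35.3 FPKM with NEK6 siRNA and 17.4 FPKM with control siRNA. PPP1R18 was highest with NEK6 siRNA in both lines (edgeR log2 ratio -1.32 with SE 0.19, adjusted p = 0.255). The rest were SLC39A9 (-1.88 in CFPAC, -1.43 in KP3), a zinc transporter, KCTD7 (-1.17 in CFPAC, -1.10 in KP3), RAB31 (-2.17 in CFPAC, -1.02 in KP3), a small GTPase of the trans-Golgi, AIDA (-2.31 in CFPAC, -0.98 in KP3), TSPAN17 (-0.97 in CFPAC, -1.01 in KP3), a tetraspanin, and TIMM8B (-0.96 in CFPAC, -1.05 in KP3), a chaperone of mitochondrial import, together with RAMACL (-1.12 in CFPAC, -1.08 in KP3). RAMACL resembles its parent gene RAMAC, so its reads may be shared with it. Except for TSPAN17, the control of these last genes lay nearer to a different knockdown in each line. With control siRNA, SLC39A9 had 2.36 FPKM in CFPAC and 11.2 FPKM in KP3, and AIDA 21.5 FPKM in CFPAC and 3.84 FPKM in KP3. Their edgeR adjusted p lay between 0.255 (TSPAN17) and 0.616 (AIDA).

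Read against the control libraries, which of the 2 siRNAs stood apart differed from gene to gene. Of the 143 genes higher with NEK7 siRNA, the control was nearer to NEK7 siRNA in both lines for 62, nearer to NEK6 siRNA for 31 and split between the lines for 50. In 40 of them NEK6 siRNA was at least 1.5-fold from control in both lines with NEK7 siRNA within that range, and in 9 the reverse held. Of the 131 genes lower with NEK7 siRNA, the control was nearer to NEK7 siRNA in 49, nearer to NEK6 siRNA in 36 and split in 46. NEK6 siRNA alone was past 1.5-fold from control in both lines in 15 of these, and NEK7 siRNA alone in 26. The NEK7 and NEK6 differences from control share the control library of their line, so they are not independent of each other. Of the genes higher in both lines 106 of 143 (74.1%) were protein-coding, and of those lower 70 of 131 (53.4%), against 80.6% of all tested. Small-RNA records made up 8 of those higher and 24 of those lower, against 367 of 14262 tested. A gene that reached 1 FPKM with 1 of the siRNAs alone had to be higher there in at least 1 line. This held for 35 of the 143 (NEK7 siRNA alone) and 40 of the 131 (NEK6 siRNA alone). Of all 14262 tested it held for 624 (NEK7 siRNA alone) and 790 (NEK6 siRNA alone).

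The short transcripts of RNA polymerases I and III were the list with the widest gap between the knockdowns. This and the other lists were chosen with earlier results of these data known. The shares of all genes beside them are therefore a level to read them by and no test. Of 18 transcripts listed 15 were in the table and 11 were tested. Of these, 10 were at least 1.5-fold lower with NEK7 than with NEK6 siRNA in both lines, against 131 of 14262 genes tested (0.919%), and DESeq2 called 8 lower, against 1.61% of all genes. The list's median difference was -1.98 in CFPAC and -2.10 in KP3. Their counts summed to 1803 with NEK7 siRNA, 7786 with NEK6 siRNA and 930 with control siRNA in CFPAC, and to 2719 with NEK7 siRNA, 13318 with NEK6 siRNA and 1438 with control siRNA in KP3. In both lines the NEK6 siRNA library was by far the highest and the NEK7 siRNA library somewhat above the control. These sums are 0.00281%, 0.0121% and 0.00156% of the CFPAC library with NEK7, NEK6 and control siRNA, and 0.00412%, 0.0220% and 0.00224% of the KP3 library with NEK7, NEK6 and control siRNA. The libraries were made with oligo(dT) beads, which do not select RNAs without a poly(A) tail. How much the libraries differ in such carry-over was not measured, and its part in the result was not tested.

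RN7SL2, an RNA of the signal recognition particle, had 539 counts with NEK7 siRNA, 2202 counts with NEK6 siRNA and 229 counts with control siRNA in CFPAC cells. KP3 cells gave RN7SL2 1094 counts with NEK7 siRNA, 4349 counts with NEK6 siRNA and 692 counts with control siRNA. RN7SL2, at chr14:49862550-49862849 on the minus strand, had the lowest adjusted p of the list (edgeR log2 ratio -2.11 with SE 0.19, adjusted p = 0.178). RN7SK, which holds the elongation factor P-TEFb inactive, had 116 counts with NEK7 siRNA, 953 counts with NEK6 siRNA and 83 counts with control siRNA in CFPAC cells. KP3 cells gave RN7SK 116 counts with NEK7 siRNA, 380 counts with NEK6 siRNA and 23 counts with control siRNA. RN7SK was highest with NEK6 siRNA in each line (edgeR log2 ratio -2.40 with SE 0.54, adjusted p = 0.366). RMRP, the RNA of RNase MRP, had 36 counts with NEK7 siRNA, 147 counts with NEK6 siRNA and 0 counts with control siRNA in CFPAC cells. KP3 cells gave RMRP 23 counts with NEK7 siRNA, 467 counts with NEK6 siRNA and 4 counts with control siRNA. The gap of RMRP was the wider in KP3 (edgeR log2 ratio -3.14 with SE 0.97, adjusted p = 0.43). RPPH1, the RNA of RNase P, differed by -1.52 in CFPAC and -2.13 in KP3, and RN7SL1 by -1.63 in CFPAC and -2.49 in KP3. The ribosomal RNA genes RNA5-8SN1, RNA5-8SN2 and RNA5-8SN3 and the record 5_8S_rRNA were between 2.76-fold and 11.9-fold lower in FPKM with NEK7 siRNA. They are near-identical copies whose reads cannot be told apart. RN7SL1 and RN7SL2, records of the same RNA, may share reads as well. VTRNA1-2, a vault RNA, had 0 counts with NEK7 and 0 counts with NEK6 siRNA in CFPAC, and 4 counts with NEK7 and 16 counts with NEK6 siRNA in KP3.

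**Figure D3:**
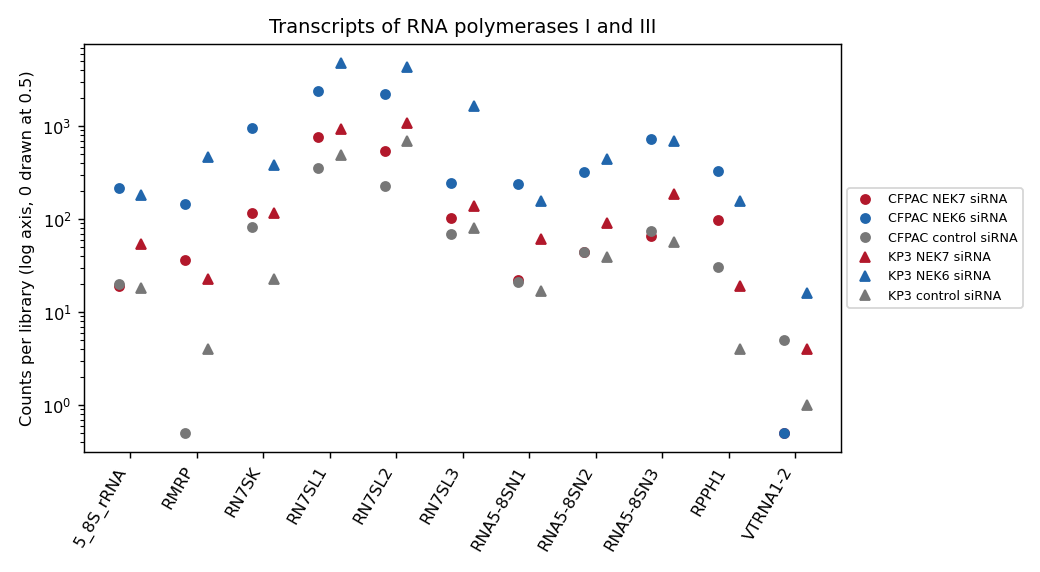
Counts per library (log axis, 0 drawn at 0.5) of the 11 transcripts of RNA polymerases I and III tested, with 1 point per library. Except for VTRNA1-2 in CFPAC, the NEK6 siRNA library lies above the NEK7 siRNA library of its line for every transcript.

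Genes of the inflammasome, where NEK7 has its known separate role, had 0 of 29 tested members at least 1.5-fold apart the same way in both lines. With 1.0% of all genes higher and 0.919% lower by that much, this is near the share of all genes and no result about the list. Of these members, from 40 listed, 0 were called by edgeR or DESeq2 (1 was lower and 0 higher at an unadjusted edgeR p under 0.05). By any amount 10 were higher and 5 lower in both lines, where 33.0% of all genes were higher and 24.5% lower. The median was -0.01 for CFPAC and 0.08 for KP3. NLRP3, the sensor, had 0.724 FPKM with NEK7 siRNA, 1.16 FPKM with NEK6 siRNA and 1.13 FPKM with control siRNA in CFPAC cells. KP3 cells gave NLRP3 0 FPKM with NEK7 siRNA, 0 FPKM with NEK6 siRNA and 0 FPKM with control siRNA. It was thus listed at 0 in all 3 KP3 libraries. PYCARD, the adaptor ASC, had 11.0 FPKM with NEK7 siRNA, 8.99 FPKM with NEK6 siRNA and 9.84 FPKM with control siRNA in CFPAC cells. KP3 cells gave PYCARD 13.9 FPKM with NEK7 siRNA, 8.42 FPKM with NEK6 siRNA and 9.07 FPKM with control siRNA. PYCARD was the highest with NEK7 siRNA in both lines (edgeR log2 ratio 0.48 with SE 0.19, adjusted p = 0.507). IL1B, the cytokine that caspase-1 matures, had 16.2 FPKM with NEK7 siRNA, 27.2 FPKM with NEK6 siRNA and 19.7 FPKM with control siRNA in CFPAC cells. KP3 cells gave IL1B 0.235 FPKM with NEK7 siRNA, 0.0867 FPKM with NEK6 siRNA and 0.0573 FPKM with control siRNA. The lines went opposite ways for IL1B, from a very low level in KP3 (edgeR log2 ratio 0.08 with SE 0.58, adjusted p = 0.973).

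The remaining named genes of that pathway were CASP1 (-0.22 in CFPAC, -0.23 in KP3), CASP4 (0.14 in CFPAC, 0.12 in KP3), GSDMD (0.00 in CFPAC, 0.21 in KP3), GSDME (-0.03 in CFPAC, -0.16 in KP3) and IL18 (0.18 in CFPAC, -0.18 in KP3), each a difference of log2(FPKM + 1) and each with an edgeR adjusted p of at least 0.507. In KP3 the levels of CASP1 (0 FPKM with NEK7 and 0.175 FPKM with NEK6 siRNA) and GSDME (0.0543 FPKM with NEK7 and 0.178 FPKM with NEK6 siRNA) were very low. Of the interleukin-1 family and its receptors 1 of 12 was higher and 3 lower in both lines. Among them was IL1RAP (-0.83 in CFPAC, -0.18 in KP3), the accessory chain of the interleukin-1 receptor. Of 26 NEK6 and NEK7 partners in mitosis 11 were higher (42.3%) and 2 lower (7.69%), against 33.0% and 24.5% of all genes. With the differences centred on the median of all genes, 9 were higher and 4 lower. RGS2, a regulator of G-protein signalling, was past 1.5-fold in both lines (0.62 in CFPAC and 1.78 in KP3). Of 8 NEK family kinases tested, NEK6 and NEK7 included, 3 were higher and 3 lower, among them NEK2 (0.23 in CFPAC, 0.44 in KP3) and NEK4 (-0.66 in CFPAC, -0.44 in KP3).

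Genes of NF-kB and inflammation were lower with NEK7 siRNA more often than higher. Of 28 tested, 12 (42.9%) were lower and 7 (25%) higher by any amount in both lines, against 24.5% and 33.0% of all genes. The medians were -0.11 in CFPAC and -0.23 in KP3, and 3 members were at least 1.5-fold lower in both lines, against 0.919% of all genes. DESeq2 called 7 lower and 0 higher, against 1.61% and 1.79% of all genes. SAA1, an acute-phase protein, had 214 FPKM with NEK7 siRNA, 400 FPKM with NEK6 siRNA and 256 FPKM with control siRNA in CFPAC cells. KP3 cells gave SAA1 5.42 FPKM with NEK7 siRNA, 18.1 FPKM with NEK6 siRNA and 7.9 FPKM with control siRNA. NEK6 siRNA gave the highest level of SAA1 in each line (edgeR log2 ratio -1.35 with SE 0.22, adjusted p = 0.285). CXCL8, interleukin-8, had 37.1 FPKM with NEK7 siRNA, 56.1 FPKM with NEK6 siRNA and 34.9 FPKM with control siRNA in CFPAC cells. KP3 cells gave CXCL8 7.7 FPKM with NEK7 siRNA, 14.1 FPKM with NEK6 siRNA and 10 FPKM with control siRNA. CXCL8 was likewise highest with NEK6 siRNA in both lines (edgeR log2 ratio -0.77 with SE 0.15, adjusted p = 0.324). SAA2, a neighbour of SAA1 with similar sequence whose reads may be shared with it, differed by -1.0 in CFPAC and -0.67 in KP3. The KP3 levels of SAA2 were low, at 0.606 FPKM with NEK7 and 1.56 FPKM with NEK6 siRNA. Interferon-stimulated genes were split, with 11 of 44 higher and 16 lower and medians of -0.04 in each line, among them ISG15 (-0.54 in CFPAC, -0.42 in KP3) and IFI6 (-0.31 in CFPAC, -0.44 in KP3). Of 19 antigen presentation genes 9 were higher and 1 lower, by small amounts such as HLA-DRA (0.29 in CFPAC, 0.28 in KP3).

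Of 7 ligands of the EGF receptor family tested, AREG, EREG and TGFA were lower with NEK7 siRNA in both lines, and BTC, HBEGF, NRG2 and NRG4 did not go the same way in both. AREG, amphiregulin, had 11.3 FPKM with NEK7 siRNA, 18.5 FPKM with NEK6 siRNA and 12.0 FPKM with control siRNA in CFPAC cells. KP3 cells gave AREG 378 FPKM with NEK7 siRNA, 579 FPKM with NEK6 siRNA and 462 FPKM with control siRNA. AREG was highest with NEK6 siRNA in both lines (edgeR log2 ratio -0.70 with SE 0.12, adjusted p = 0.286). EREG, epiregulin, chosen after its values were seen, had 8.03 FPKM with NEK7 siRNA, 29.5 FPKM with NEK6 siRNA and 14.4 FPKM with control siRNA in CFPAC cells. KP3 cells gave EREG 0.0927 FPKM with NEK7 siRNA, 0.285 FPKM with NEK6 siRNA and 0.156 FPKM with control siRNA. Its level in KP3 was very low, yet the order of the libraries was the same as in CFPAC (edgeR log2 ratio -1.81 with SE 0.14, adjusted p = 0.178). TGFA, a further ligand, differed by -0.78 in CFPAC and -0.51 in KP3. The receptor ERBB2 and the adaptor GRB7 gave 0.25 in CFPAC and 0.49 in KP3 for ERBB2, and 0.53 in CFPAC and 0.61 in KP3 for GRB7. Over the whole list of 16, 5 were higher and 5 lower in both lines, where 33.0% of all genes were higher and 24.5% lower.

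Immediate early genes and feedback regulators of MAPK had 12 of 31 members lower and 7 higher in both lines. FOSL1, a subunit of AP-1, had 16.5 FPKM with NEK7 siRNA, 28.3 FPKM with NEK6 siRNA and 28.7 FPKM with control siRNA in CFPAC cells. KP3 cells gave FOSL1 54.3 FPKM with NEK7 siRNA, 92.1 FPKM with NEK6 siRNA and 116 FPKM with control siRNA. The NEK7 siRNA library was the lowest in each line (edgeR log2 ratio -0.80 with SE 0.13, adjusted p = 0.285). JUND, another AP-1 subunit, went the other way, by 0.65 in CFPAC and 0.57 in KP3. Targets of YAP and TEAD had 11 of 21 members lower (52.4%) and 3 higher (14.3%), with median differences of -0.26 in CFPAC and -0.17 in KP3. Of all genes 24.5% were lower and 33.0% higher. DESeq2 called 4 of the 21 lower and 1 higher, against 1.61% and 1.79% of all genes. Among them were ANKRD1 (-0.69 in CFPAC, -1.41 in KP3), CCN1 (-0.71 in CFPAC, -0.47 in KP3) and the coactivator YAP1 (-0.87 in CFPAC, -0.45 in KP3), while CRIM1 (0.86 in CFPAC, 0.88 in KP3) was higher. The CFPAC levels of ANKRD1 were low, at 0.315 FPKM with NEK7 and 1.12 FPKM with NEK6 siRNA. In the TGF-beta list 8 of 23 were higher and 9 lower, and both receptors were lower: TGFBR1 (-1.20 in CFPAC, -0.70 in KP3) and TGFBR2 (-0.74 in CFPAC, -0.42 in KP3). Of 27 WNT pathway genes 11 were higher and 4 lower, with FZD6 (-0.71 in CFPAC, -0.33 in KP3) lower.

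Cell cycle genes were higher with NEK7 siRNA more often than lower, by small amounts. In the list of mitosis and G2/M, 28 of 50 (56.0%) were higher and 6 (12.0%) lower in both lines, against 33.0% and 24.5% of all genes, with median differences of 0.12 in CFPAC and 0.24 in KP3. None of the 50 was past 1.5-fold in both lines. ESPL1, separase, which cuts cohesin at anaphase, had 5.31 FPKM with NEK7 siRNA, 2.59 FPKM with NEK6 siRNA and 3.95 FPKM with control siRNA in CFPAC cells. KP3 cells gave ESPL1 4.53 FPKM with NEK7 siRNA, 2.74 FPKM with NEK6 siRNA and 4.83 FPKM with control siRNA. In CFPAC its control lay between the knockdowns and in KP3 at the level of NEK7 siRNA (edgeR log2 ratio 0.85 with SE 0.17, adjusted p = 0.325). The mitotic kinesin KIF18A differed by 0.51 in CFPAC and 0.65 in KP3, and the phosphatase CDC25B, lower, by -0.52 in CFPAC and -0.68 in KP3. DNA replication and S phase genes gave 27 of 50 higher (54.0%) and 6 lower (12.0%), with median differences of 0.07 and 0.20 in CFPAC and KP3 and 0 past 1.5-fold. Among them, TYMS (0.50 in CFPAC, 0.65 in KP3), which makes thymidylate, and POLD3 (0.52 in CFPAC, 0.50 in KP3), a polymerase delta subunit, were higher. With the differences centred on the median of all genes, 24 of 50 were higher in each of these 2 lists.

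**Figure D4:**
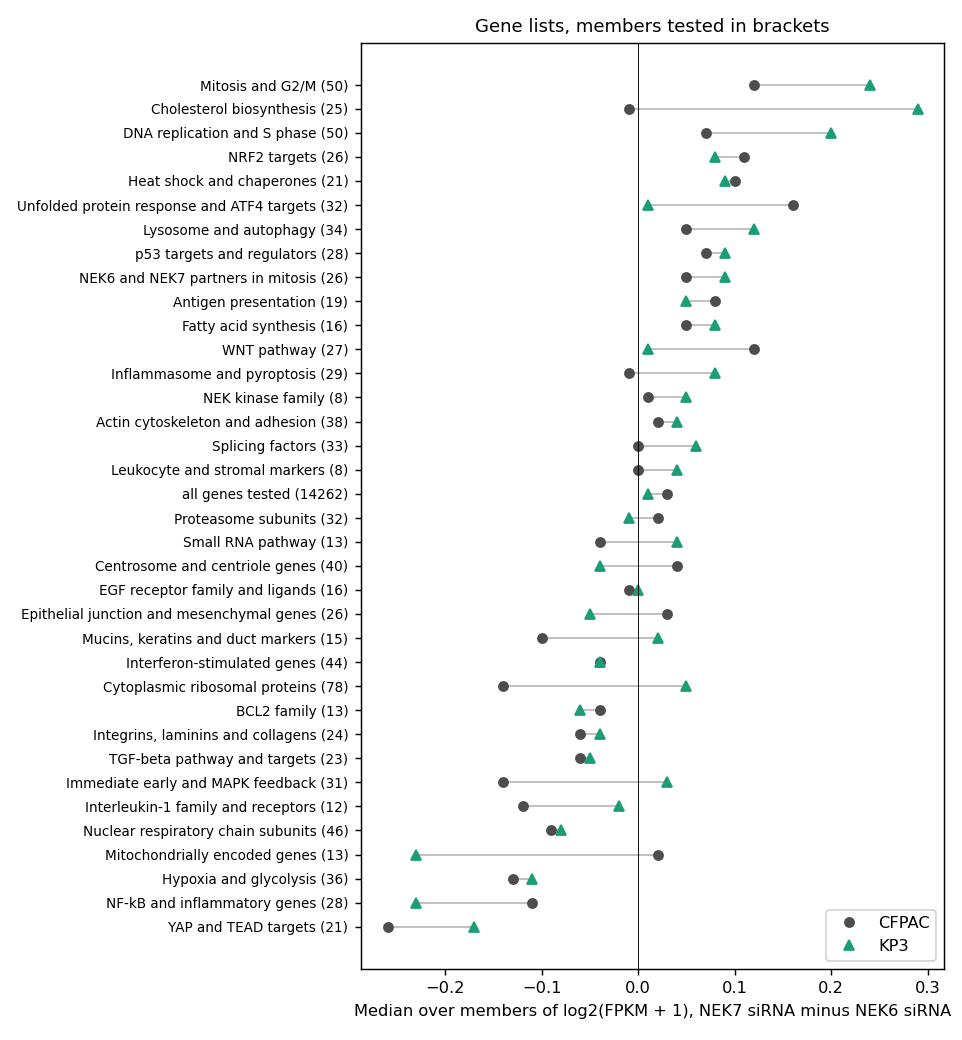
Median difference of log2(FPKM + 1) between NEK7 and NEK6 siRNA of the gene lists in CFPAC and in KP3, with the number of members tested in brackets. The transcripts of RNA polymerases I and III, with medians of -1.98 and -2.10, are not drawn, and every other list lies between -0.26 and 0.29.

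Genes of hypoxia and glycolysis were lower with NEK7 siRNA in 19 of 36 (52.8%) and higher in 4 (11.1%), with median differences of -0.13 in CFPAC and -0.11 in KP3, where 24.5% of all genes were lower and 33.0% higher. None of the 36 was past 1.5-fold in both lines. ALDOA, the glycolytic enzyme aldolase A, had 114 FPKM with NEK7 siRNA, 193 FPKM with NEK6 siRNA and 236 FPKM with control siRNA in CFPAC cells. KP3 cells gave ALDOA 186 FPKM with NEK7 siRNA, 232 FPKM with NEK6 siRNA and 255 FPKM with control siRNA. Both lines had it lowest with NEK7 siRNA (edgeR log2 ratio -0.57 with SE 0.18, adjusted p = 0.43). ERO1A, an oxidase of the endoplasmic reticulum, differed by -0.41 in CFPAC and -0.55 in KP3, the neuronal enolase ENO2 by -0.32 in CFPAC and -0.68 in KP3 and the peptide hormone gene ADM, higher, by 0.39 in CFPAC and 0.35 in KP3. Nuclear genes for respiratory chain subunits were lower in 26 of 46 (56.5%) and higher in 10 (21.7%), with median differences of -0.09 and -0.08 in CFPAC and KP3, beside the same shares of all genes. SDHD, an anchor of succinate dehydrogenase, had 60.9 FPKM with NEK7 siRNA, 33.3 FPKM with NEK6 siRNA and 60.5 FPKM with control siRNA in CFPAC cells. KP3 cells gave SDHD 47.8 FPKM with NEK7 siRNA, 23.2 FPKM with NEK6 siRNA and 49.1 FPKM with control siRNA. SDHD was the exception in size, lowest with NEK6 siRNA in both lines (edgeR log2 ratio 0.92 with SE 0.12, adjusted p = 0.255). COX4I1 and COX7A2, of cytochrome c oxidase, differed by -0.42 in CFPAC and -0.54 in KP3 and by -0.44 in CFPAC and -0.66 in KP3.

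Mitochondrially encoded genes had medians of 0.02 in CFPAC and -0.23 in KP3, with 2 of 13 higher and 5 lower in both lines. Of 78 cytoplasmic ribosomal proteins 27 (34.6%) were lower and 8 (10.3%) higher, with median differences of -0.14 in CFPAC and 0.05 in KP3, so the list did not go 1 way (24.5% of all genes were lower and 33.0% higher). RPS14, of the small subunit, had 62.0 FPKM with NEK7 siRNA, 117 FPKM with NEK6 siRNA and 127 FPKM with control siRNA in CFPAC cells. KP3 cells gave RPS14 65.7 FPKM with NEK7 siRNA, 99.8 FPKM with NEK6 siRNA and 111 FPKM with control siRNA. RPS14 was lowest with NEK7 siRNA in both lines (edgeR log2 ratio -0.79 with SE 0.13, adjusted p = 0.285). RPS27A differed by -0.70 in CFPAC and -0.45 in KP3. Ribosomal protein genes have many processed pseudogenes, so their counts may be shared with copies. Proteasome subunits were divided, with 8 of 32 higher and 6 lower, with PSMC2 (-0.41 in CFPAC, -0.42 in KP3) lower.

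Targets of NRF2, the regulator of antioxidant genes, were higher in 15 of 26 (57.7%) and lower in 5 (19.2%), with median differences of 0.11 and 0.08 in CFPAC and KP3, where 33.0% of all genes were higher and 24.5% lower. HMOX1, heme oxygenase 1, had 7.29 FPKM with NEK7 siRNA, 3.17 FPKM with NEK6 siRNA and 8.53 FPKM with control siRNA in CFPAC cells. KP3 cells gave HMOX1 3.91 FPKM with NEK7 siRNA, 1.41 FPKM with NEK6 siRNA and 3.13 FPKM with control siRNA. In both lines the NEK6 siRNA library was the lowest and the other libraries were nearer each other (edgeR log2 ratio 1.31 with SE 0.22, adjusted p = 0.286). GPX2, a glutathione peroxidase, differed by 0.90 in CFPAC and 0.95 in KP3, and the ferritin heavy chain FTH1, lower, by -0.33 in CFPAC and -0.67 in KP3. The KP3 levels of GPX2 were low, at 1.24 FPKM with NEK7 and 0.158 FPKM with NEK6 siRNA. Lysosome and autophagy genes were higher in 13 of 34 (38.2%) and lower in 5 (14.7%), beside the same shares of all genes. The share higher was thus near that of all genes. LAMP1, an abundant glycoprotein of the lysosomal membrane, had 45.7 FPKM with NEK7 siRNA, 26.1 FPKM with NEK6 siRNA and 31.0 FPKM with control siRNA in CFPAC cells. KP3 cells gave LAMP1 92.3 FPKM with NEK7 siRNA, 52.1 FPKM with NEK6 siRNA and 64.4 FPKM with control siRNA. LAMP1 was highest with NEK7 and lowest with NEK6 siRNA in both lines (edgeR log2 ratio 0.78 with SE 0.10, adjusted p = 0.255). Cholesterol biosynthesis genes had medians of -0.01 in CFPAC and 0.29 in KP3, with 10 of 25 higher and 3 lower, among them SREBF2 (0.33 in CFPAC, 0.73 in KP3) and HMGCS1 (0.39 in CFPAC, 0.33 in KP3). In fatty acid synthesis, ELOVL1 (0.53 in CFPAC, 0.80 in KP3) and SCD (0.30 in CFPAC, 0.47 in KP3) were higher and FASN (-0.29 in CFPAC, -0.38 in KP3) was lower, of 16 with 8 higher and 5 lower.

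**Figure D5:**
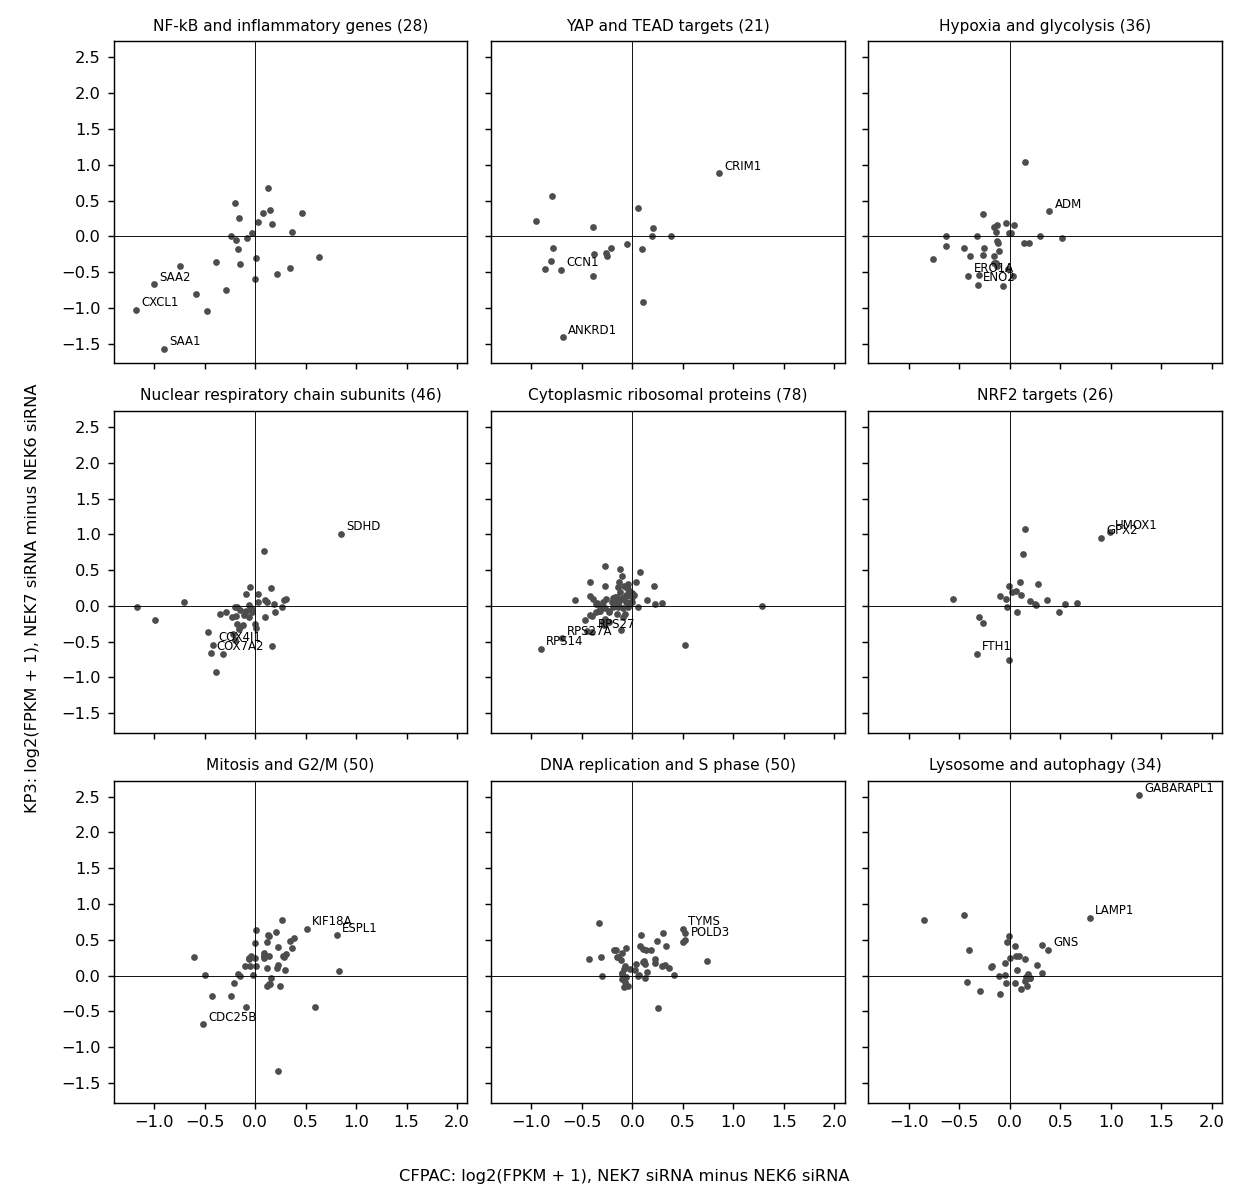
Differences of log2(FPKM + 1) between NEK7 and NEK6 siRNA for each member of 9 gene lists, CFPAC horizontal and KP3 vertical, 1 point per gene, with up to 3 members named in a panel. At the lower left, lower in both lines, lie 12 of 28 NF-kB, 11 of 21 YAP and TEAD, 19 of 36 hypoxia, 26 of 46 respiratory chain and 27 of 78 ribosomal protein genes. At the upper right, higher in both lines, lie 15 of 26 NRF2 targets, 28 of 50 mitosis, 27 of 50 S phase and 13 of 34 lysosome genes.

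Targets and regulators of p53 had 11 of 28 members higher and 8 lower in both lines, and the 1 past 1.5-fold was MDM4. Of all genes, for this and the next lists, 33.0% were higher and 24.5% lower. TP53I3 (-0.57 in CFPAC, -0.70 in KP3) and GADD45A (-0.46 in CFPAC, -0.43 in KP3) were lower, and TNFRSF10B (0.30 in CFPAC, 0.48 in KP3), a death receptor, was higher. In the BCL2 family 3 of 13 were higher and 4 lower. MCL1, which protects from apoptosis, had 61.8 FPKM with NEK7 siRNA, 101 FPKM with NEK6 siRNA and 80.9 FPKM with control siRNA in CFPAC cells. KP3 cells gave MCL1 59.5 FPKM with NEK7 siRNA, 89.3 FPKM with NEK6 siRNA and 84.5 FPKM with control siRNA. MCL1 was lowest with NEK7 siRNA in both lines (edgeR log2 ratio -0.69 with SE 0.12, adjusted p = 0.286), while PMAIP1, which opposes it, differed by 0.50 in CFPAC and 0.49 in KP3. Genes of the unfolded protein response and ATF4 gave 15 of 32 higher and 5 lower, with SEL1L (0.28 in CFPAC, 0.47 in KP3) higher and ASNS (-0.58 in CFPAC, -0.31 in KP3) lower. Heat shock genes gave 10 of 21 higher and 3 lower, all by less than 1.5-fold in both lines.

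Adhesion genes did not go 1 way (33.0% of all genes were higher and 24.5% lower in both lines). Of 24 integrins, laminins and collagens 6 were higher and 9 lower, among them ITGB4 (-0.48 in CFPAC, -0.67 in KP3) and ITGAV (-0.50 in CFPAC, -0.35 in KP3), both lower. Of 26 epithelial junction and mesenchymal genes 8 were higher and 7 lower, with CTNND1 (1.47 in CFPAC, 0.69 in KP3), the catenin p120, past 1.5-fold in both lines and CDH1 (-0.40 in CFPAC, -0.75 in KP3), E-cadherin, lower. Of 38 actin and adhesion genes 14 were higher and 12 lower, including DIAPH1 (-0.55 in CFPAC, -0.55 in KP3), a formin. Among 15 mucins, keratins and duct markers 6 were higher and 4 lower, with CEACAM6 (0.60 in CFPAC, 0.80 in KP3) past 1.5-fold. The KP3 levels of CEACAM6 were low, at 1.12 FPKM with NEK7 and 0.214 FPKM with NEK6 siRNA. Of 40 centrosome and centriole genes 10 were higher and 11 lower, 0 of them past 1.5-fold in both lines. Splicing factors (13 of 33 higher, 9 lower), small RNA pathway genes (4 of 13 higher, 5 lower) and leukocyte and stromal markers (2 of 8 higher, 1 lower) had medians between -0.04 and 0.06.

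Read-through records, pseudogenes and non-coding records were named apart from the genes above. URGCP-MRPS24, a read-through record over neighbouring genes that the annotation types as protein-coding, had 0 counts with NEK7 siRNA, 232 counts with NEK6 siRNA and 0 counts with control siRNA in CFPAC cells. In KP3 cells it had 0 counts with NEK7 siRNA, 379 counts with NEK6 siRNA and 0 counts with control siRNA. Against a floor of 3 counts in the NEK7 siRNA library it was at least 77.3-fold lower in CFPAC and at least 138-fold lower in KP3. RPS26P19, a pseudogene of RPS26, had 378 counts with NEK7 siRNA, 16 counts with NEK6 siRNA and 4 counts with control siRNA in CFPAC cells. KP3 cells gave RPS26P19 460 counts with NEK7 siRNA, 4 counts with NEK6 siRNA and 21 counts with control siRNA. RPS26P19 was high in the NEK7 siRNA libraries of both lines (edgeR log2 ratio 5.24 with SE 1.02, adjusted p = 0.324). LDHAP4 and FTH1P10, further pseudogenes, differed by 1.60 in CFPAC and 1.83 in KP3 and by 1.66 in CFPAC and 1.02 in KP3, and BCL2L2-PABPN1, a read-through record also typed as protein-coding, by 1.62 in CFPAC and 1.05 in KP3. MIR1227 had 11 counts with NEK7 and 1 count with NEK6 siRNA in CFPAC, and 13 counts with NEK7 and 1 count with NEK6 siRNA in KP3. Reads of pseudogenes, read-through records and overlapping or antisense genes can be split with their partners, and the sources used here do not give whether counting used the strand.

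Some of the widest gaps were far wider in 1 line than in the other, and the genes here were chosen after their values were seen. AHNAK, a very large scaffold protein, had 155097 counts with NEK7 siRNA, 5523 counts with NEK6 siRNA and 129884 counts with control siRNA in CFPAC cells. KP3 cells gave AHNAK 5336 counts with NEK7 siRNA, 5250 counts with NEK6 siRNA and 119600 counts with control siRNA. It was low with both siRNAs in KP3 and with NEK6 siRNA alone in CFPAC (edgeR log2 ratio 3.02 with SE 1.46, adjusted p = 0.559). CLDN4, a tight junction claudin, had 12 counts with NEK7 siRNA, 9695 counts with NEK6 siRNA and 66 counts with control siRNA in CFPAC cells. KP3 cells gave CLDN4 45 counts with NEK7 siRNA, 191 counts with NEK6 siRNA and 35 counts with control siRNA. CLDN4 was high in the CFPAC library with NEK6 siRNA and low in the 5 others (edgeR log2 ratio -6.24 with SE 2.06, adjusted p = 0.436). LASP1, an actin-binding protein, differed by 0.34 in CFPAC and 2.58 in KP3, and TXNIP, an inhibitor of thioredoxin, by -0.04 in CFPAC and 1.38 in KP3. The difference between the lines was not tested for any of these, since each line has 1 library per siRNA.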

How the data were processed

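RNA from CFPAC and KP3 cells was sequenced from libraries made with oligo(dT) beads from 5 ug of total RNA, per the labels' protocols. The submitters' processing notes name edgeR, StringTie 1.3.4d, HISAT2 2.0.4 and cutadapt 1.9 without their roles. The authors deposited a whole-number count per gene and library, without normalization. FPKM values, scaled to length and depth per the file headers, were deposited beside them. No source used here states the genome build, and 32211 of 33097 gene ids are in GENCODE v29 (GRCh38). Records were kept apart by id, since 1971 names stood on more than 1 record.

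Counts were fitted with edgeR 4.0.16 (R 4.3.3, TMM, quasi-likelihood F test) with cell line and siRNA as factors and all 6 libraries in the fit, the contrast being NEK7 against NEK6 siRNA; the control libraries add to the estimate of the spread and, through the line term, can move a fitted ratio. The labels pair the libraries by cell line, which was the block. Benjamini-Hochberg adjustment ran over 14262 genes, with a threshold of 0.05. The p-values set the difference against how far the lines disagreed over all siRNA conditions, control included. They are thus no measure of how alike the NEK7 and NEK6 siRNA difference alone was. Nothing in the labels tells of separate cultures within a line. Differences within a line are of log2(FPKM + 1), which understates the change of low genes. DESeq2 1.42.0 and limma 3.58.1 were alternatives, beside other scalings, filters, pseudocounts and libraries left out. The fits were also run on simulated data with 200 changed genes. Those data gave both lines the same mean and all genes a common dispersion, unlike the libraries here. Their outcome is not given, so they back no result.

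The members, the 36 gene lists and the rule for named genes were chosen with earlier results of these data known, and lists are described by counts and medians with no set test. Named were NEK6, NEK7, NEK9 and 8 inflammasome genes, the 14 protein-coding genes other than read-through records and the 5 other records (read-through records included) most different each way by the smaller of both lines' differences, the 4 widest opposite each way, and at most 4 members per list. Genes named outside this rule are said to be chosen after their values were seen, apart from members given to complete a list. Names given by clone or standing on more than 1 record were skipped. Sequences are from GENCODE v29. Some named genes are not reported here.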

Additional observations from a re-analysis of the deposited data

Results flagged for a closer look

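8 gene records stood at least 1.5-fold apart between NEK7 and NEK6 siRNA in opposite ways in the 2 lines and are the 4 widest in each direction among records with a gene name of their own, clone-named and doubly named records left out. The difference between the lines was not tested, since each line has 1 library per siRNA. F8A2 differed by 2.31 in CFPAC and -1.81 in KP3 (log2(FPKM + 1), NEK7 minus NEK6 siRNA, as for all values here). ARPC5, a subunit of the Arp2/3 actin nucleator, differed by 1.65 in CFPAC and -1.52 in KP3. TIMP2, an inhibitor of metalloproteinases, differed by 1.28 in CFPAC and -1.38 in KP3. PPARA, a nuclear receptor of fatty acid oxidation, differed by 1.49 in CFPAC and -1.19 in KP3. UPK3BL1 differed by -3.46 in CFPAC and 3.0 in KP3. RNA5SP202, a pseudogene record, differed by -2.21 in CFPAC and 1.63 in KP3, on 0 to 33 counts per library. ATP6V1G2-DDX39B, a read-through record, differed by -1.53 in CFPAC and 1.36 in KP3. TDG, a DNA glycosylase, differed by -1.30 in CFPAC and 1.43 in KP3. ARPC5 had 16.1 FPKM with NEK7 siRNA, 4.47 FPKM with NEK6 siRNA and 17.4 FPKM with control siRNA in CFPAC cells. KP3 cells gave ARPC5 4.96 FPKM with NEK7 siRNA, 16.1 FPKM with NEK6 siRNA and 18.7 FPKM with control siRNA. The lone low library of ARPC5 was that with NEK6 siRNA in CFPAC and that with NEK7 siRNA in KP3. TIMP2 had 273 FPKM with NEK7 siRNA, 112 FPKM with NEK6 siRNA and 111 FPKM with control siRNA in CFPAC cells. KP3 cells gave TIMP2 64.5 FPKM with NEK7 siRNA, 169 FPKM with NEK6 siRNA and 72.2 FPKM with control siRNA. For TIMP2 the high library was that with NEK7 siRNA in CFPAC and that with NEK6 siRNA in KP3. F8A2 and UPK3BL1 have near-identical copies in the genome, so their counts are uncertain. DESeq2 called none of the 124 records past 1.5-fold in opposite ways, but it fitted a single ratio for both lines, which such records could hardly pass.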

How the results depend on the processing

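Each line and siRNA had 1 library, so no spread within a line could be measured, and records with few counts have the widest counting error. What limits the number of calls was not tested. edgeR called 0 genes, as it did with the 4 NEK7 and NEK6 siRNA libraries alone, with DESeq2's size factors, with other filters and with no replicate block (cell line left out), and limma called 0 as well. DESeq2 called 485. With each library left out in turn edgeR called 0 to 1, the 1 being a clone-named record without the CFPAC NEK7 siRNA library. Genes past 1.5-fold higher in both lines numbered 143, against 350 with a pseudocount of 0.1, 77 at a mean FPKM of at least 5 and 27 past 2-fold. Those lower numbered 131, against 378 with that pseudocount, 202 on log2(CPM + 1) with TMM, 72 at a mean FPKM of at least 5, 70 among protein-coding genes alone and 36 past 2-fold. Those higher in CFPAC and lower in KP3 numbered 71, against 234 with that pseudocount, 17 at a mean FPKM of at least 5, 31 protein-coding and 14 past 2-fold. Those lower in CFPAC and higher in KP3 numbered 53, against 157, 25 and 16 under the pseudocount, the mean FPKM and 2-fold. Within a line the pseudocount of 0.1 gave 1405 higher and 1172 lower genes in CFPAC and 1459 higher and 1581 lower in KP3. List members past 1.5-fold in both lines numbered 31, and 48 with that pseudocount. A lower pseudocount lets low genes pass by construction; for the other shifts the cause was not tested. Centring on the median of all genes, chosen after seeing the data, left 29.5% of genes higher and 29.5% lower in both lines. No list median past 0.1 changed sign in 214 recomputed. Of 2541 pairs of named gene and setting 52 changed sign, in 15 genes such as IL1B, IL18, NEK9 and TDG.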
